A study of Rattus norvegicus with 9 samples.

Results

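The MHC class II antigen presentation genes were followed in the livers of male Sprague-Dawley rats. They were 8 genes, named by symbol from the pathway, among 17156 genes listed in the deposited tables. Earlier results of these data were known when they were chosen. The members were the alpha and beta chains of the 2 classical rat class II molecules (RT1-Ba with RT1-Bb, and RT1-Da with RT1-Db1), the chains of the peptide editor RT1-DM (RT1-DMa and RT1-DMb), the invariant chain Cd74 and the class II transactivator Ciita. Poly(A) RNA of whole liver was sequenced in 9 libraries, 3 in each of 3 groups. The normal group received saline in place of carbon tetrachloride, the model group received 2 ml/kg carbon tetrachloride as a 50% oil solution into the stomach 2 times a week for 9 weeks, and the TA group received the same hepatotoxin followed by tormentic acid (TA) for 6 weeks. All rats were fasted for 12 h before the livers were taken. The labels of the TA livers give no dose, and the study's methods used more than 1 dose in its TA-treated groups. The saline of the normal group is not the oil in which the hepatotoxin was given, so oil and hepatotoxin cannot be told apart in Model VS Normal. Each library is called a liver here. The labels do not say outright that each came from its own rat, so p-values set differences against the spread between these samples. Each held between 13156735 and 18090405 counts.

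Class II molecules carry peptides from the endosomes of antigen presenting cells to CD4+ T cells. In the endoplasmic reticulum the invariant chain Cd74 fills the groove of the new alpha and beta pair and escorts it to the endosome, where proteases trim Cd74 and the DM molecule exchanges the remaining fragment for antigen peptide. In liver the complex is known mainly from dendritic cells, B cells, Kupffer cells and infiltrating macrophages, and interferon gamma induces it in many other cells through Ciita, a coactivator that binds to no DNA itself and docks on the factors bound at the X and Y boxes of class II promoters.

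The promoters of the members are shown first, because the shared spacing of these boxes is what the chain genes have in common at the DNA level. RefSeq promoter windows of the GRCr8 build were held for 6 of the 8 members, and RT1-DMb and Ciita had no entry. Each window runs from 250 bases upstream to 50 bases downstream of the annotated start. The stretches printed here cover 125 to 26 bases upstream on the strand of the gene, and capitals mark matches on that strand to the Y box, to its core and to the element that precedes it. They lie at chr20:4576932-4577031 on the plus strand for RT1-Ba, at chr20:4604144-4604243 on the minus strand for RT1-Bb, at chr20:4515290-4515389 on the plus strand for RT1-Da, at chr20:4560188-4560287 on the minus strand for RT1-Db1 and at chr20:4712361-4712460 on the minus strand for RT1-DMa.
RT1-Ba: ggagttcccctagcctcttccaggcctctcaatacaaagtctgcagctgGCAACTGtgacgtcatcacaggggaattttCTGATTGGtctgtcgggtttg
RT1-Bb: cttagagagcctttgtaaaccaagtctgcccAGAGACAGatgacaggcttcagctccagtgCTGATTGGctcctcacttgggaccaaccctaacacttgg
RT1-Da: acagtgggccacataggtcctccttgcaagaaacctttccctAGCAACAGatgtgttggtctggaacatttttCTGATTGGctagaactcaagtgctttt
RT1-Db1: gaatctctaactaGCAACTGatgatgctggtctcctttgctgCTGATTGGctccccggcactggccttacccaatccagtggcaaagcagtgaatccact
RT1-DMa: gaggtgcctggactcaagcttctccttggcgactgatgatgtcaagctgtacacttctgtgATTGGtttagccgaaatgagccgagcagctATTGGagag
The 8-letter Y box CTGATTGG stood upstream in all 4 classical chain genes, starting 46 bases before the start of RT1-Ba, 64 before RT1-Bb, 52 before RT1-Da and 83 before RT1-Db1. It was found on either strand in 3.5% of 33469 rat promoter windows. Its 5-letter core ATTGG, which includes every 8-letter match, was in 37.5% of windows. The X box core AGNNACAG was followed by ATTGG 10 to 40 bases later in RT1-Bb, at 94 bases upstream, and in RT1-Da, at 83 bases upstream. This spaced pair was in 0.675% of all windows, and AGNNACAG alone in 26%. RT1-Ba and RT1-Db1 carried GCAACNG in the same place, 76 and 112 bases upstream, and RT1-Da carried it at 82 bases upstream, overlapping its X box core. GCAACNG with a following ATTGG was in 0.469% of windows and was searched for only after these sequences had been read. RT1-DMa held the core ATTGG at 64 and at 34 bases upstream and no 8-letter match. The Cd74 window held 1 core, on the opposite strand 189 bases upstream. These are letter matches in a window, and binding was not measured here.

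**Figure D1:**
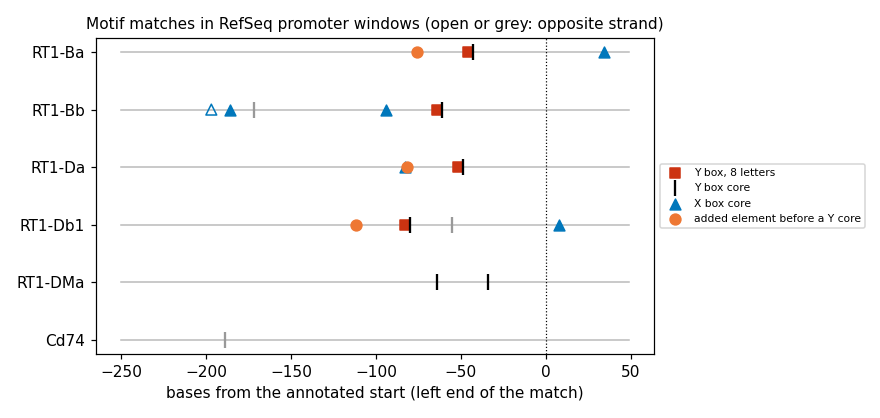
Position of each motif match in the RefSeq promoter windows of the 6 members with an entry. The x axis is distance in bases from the annotated start, squares mark the 8-letter Y box, ticks its 5-letter core, triangles the X box core and circles the element added after the sequences were read, with open or grey marks on the opposite strand. The Y box of the 4 classical chain genes sits between 46 and 83 bases upstream.

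The members differed widely in level. FPKM, which divides by gene length, is the scale on which genes may be set side by side, and it is the authors' own. In normal livers Cd74 stood at 199 ± 62.1 FPKM (SD, n = 3), RT1-Da at 39.0 ± 12.1, RT1-Ba at 38 ± 11.9, RT1-Db1 at 19.9 ± 6.86, RT1-Bb at 11.5 ± 4.36 and Ciita at 1.12 ± 0.267. The invariant chain was 4.16 to 6.68 times RT1-Da in each of the 9 livers, and RT1-Bb was 7.65 to 12.1 times Ciita. RT1-Db1 was above RT1-Bb in 9 of 9 livers. RT1-Da was above RT1-Ba in only 6 of 9 livers and RT1-Ba above RT1-Db1 in 8 of 9, so the order of these neighbours was not the same in every liver. Each level rests on the gene length used by the authors, which was 2.91 times that of Cd74 for RT1-Bb and 3.96 times for Ciita.

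The DM chains were nearly absent from the counts. RT1-DMa had 1, 0 and 0 counts in the normal livers, 0, 1 and 0 in the model livers and 1, 0 and 0 in the TA livers. RT1-DMb had 0, 2 and 1 counts in the normal livers, 3, 11 and 1 in the model livers and 1, 1 and 1 in the TA livers. Cd74, which the same endosomes hold, had at least 3586 counts in every liver. Neither DM chain passed the filter on low counts in any comparison, so 6 of the 8 members were tested. Whether reads of the DM genes were assigned elsewhere in the authors' counting was not tested.

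Model VS Normal asks what the hepatotoxin changed. All levels of 1 gene across livers are given as CPM scaled by edgeR's trimmed mean of M-values (TMM CPM). In the normal livers RT1-Ba, the alpha chain of the RT1-B molecule, measured 83.5, 48.6 and 52.8 TMM CPM. The model livers measured 67.7, 174 and 188 for RT1-Ba. Model livers 2 and 3 were above every normal liver and model liver 1 was inside the normal range, so the groups overlapped. The fitted difference of RT1-Ba was 1.22 ± 0.43 on the log2 scale (SE, n = 3 in each group), with an edgeR quasi-likelihood p of 0.0219 and an adjusted p of 0.113.

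Its partner, the beta chain RT1-Bb, measured 79.1, 42.7 and 43.8 TMM CPM in normal livers and 59.4, 136 and 160 in model livers. The difference was 1.10 ± 0.43 (log2, SE), with an edgeR adjusted p of 0.136. Model liver 1 again lay among the normal livers. RT1-Da, the alpha chain of the RT1-D molecule, measured 156, 89.0 and 103 TMM CPM in normal livers and 122, 421 and 367 in model livers. It had the largest fitted difference of the 6 members, 1.39 ± 0.50 (log2, SE), with an edgeR adjusted p of 0.116. RT1-Db1, the beta chain that pairs with it, measured 104, 52.1 and 71.8 TMM CPM in normal livers and 79.3, 231 and 183 in model livers. Its difference was 1.12 ± 0.45 (log2, SE), with an edgeR adjusted p of 0.143. The same 2 model livers carried the difference for both chains.

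The chaperone Cd74 measured 444, 246 and 301 TMM CPM in normal livers and 325, 974 and 965 in model livers. Its difference was 1.19 ± 0.52 (log2, SE), with an edgeR adjusted p of 0.172, the widest error of the 6. Ciita, the switch of the family, measured 8.89, 5.34 and 7.81 TMM CPM in normal livers and 7.5, 19.0 and 19.5 in model livers. Its difference was 1.06 ± 0.41 (log2, SE), with an edgeR adjusted p of 0.137. Ciita thus showed the same split among model livers as the other tested members, and whether it drove their levels was not tested.

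**Figure D2:**
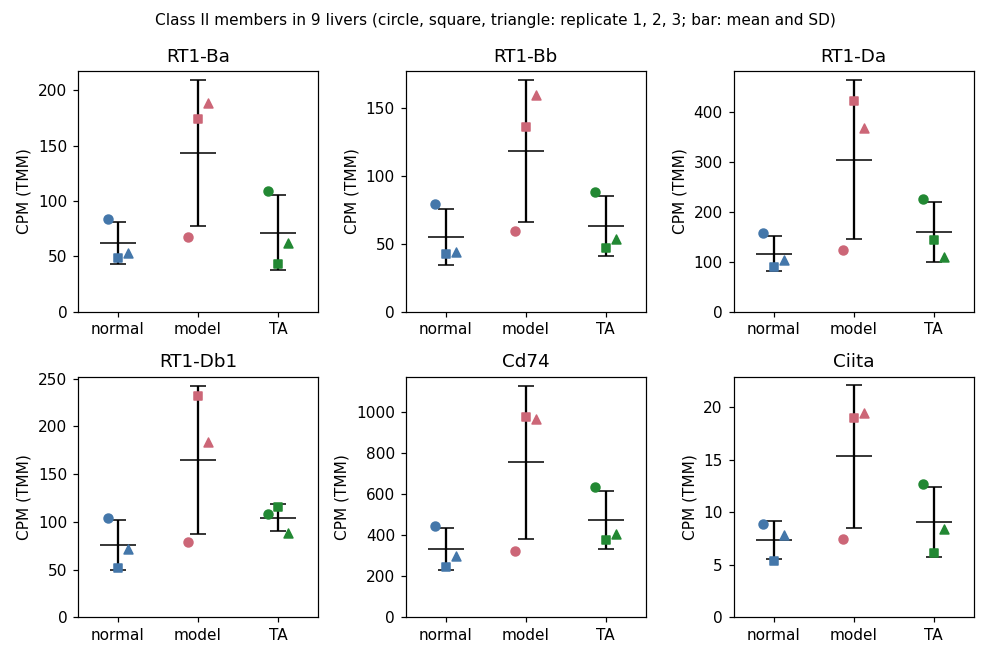
TMM CPM of the 6 tested members in each of the 9 livers, 1 panel a gene, with circles, squares and triangles for replicates 1, 2 and 3 and bars for the group mean and SD (n = 3). In every panel model livers 2 and 3 are the highest of the 9 and model liver 1 lies within the normal range.

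By adjusted p under 0.05, none of the 6 tested members passed in Model VS Normal, against 7.87% of 12730 genes. All 6 had an unadjusted p under 0.05, between 0.0219 and 0.0495. By the study's own thresholds (a fold change of more than 1 log2 unit with an unadjusted p under 0.05) all 6 were called higher, against 16.6% of genes in that direction. The median log2 difference of the 6 was 1.16, beside 0.02 over all genes tested. By range, 0 of 6 members had model livers all above normal livers, against 20.9% of genes. An exact permutation test of 3 against 3 cannot give a p below 0.1, so none was used for single genes.

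The calls depended on single livers. With model liver 1 left out, all 6 members passed at an adjusted p under 0.05, against 5.75% of genes, with edgeR adjusted p from 0.0148 for RT1-Da to 0.0365 for RT1-Bb and a median log2 difference of 1.49. With model liver 2 left out, or with model liver 3 left out, 0 of 6 met the study's thresholds, against 16.6% and 18.8% of genes called higher. The same count of 0 was found without normal liver 2 and without normal liver 3, against 13.3% and 14.7% of genes. With the replicate number as a block, 0 of 6 met them, against 15.6% of genes, and the median was 1.09.

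Model liver 1 differed from the other libraries in ways that bear on scaling. Its TMM factor was 1.69, against 0.816 to 1.16 in the other 8, its 50 most abundant genes held 27.9% of counts, against 40.4% to 45.7%, and hepatocyte markers summed to 36044 TMM CPM, against at least 99443 in the other livers. Scaled by library totals instead, the 6 members summed to 740, 416 and 473 CPM in normal livers and 1117, 2257 and 1981 in model livers. Model liver 1 was then above every normal liver. On that scale the 2 groups did not overlap for 6 of 6 members, against 43% of all genes in that direction. All 6 members passed at an adjusted p under 0.05 there, against 15.1% of genes, but library totals moved the median of all genes from 0.02 to 0.65. Relative to that median the members stood 1.02 higher, beside 1.14 with TMM.

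TA VS Model asks what differed after tormentic acid. The TA livers measured 109, 43.0 and 62.1 TMM CPM for RT1-Ba, a difference from the model livers of -1.0 ± 0.49 (log2, SE, n = 3 in each group; edgeR adjusted p 0.352). RT1-Bb measured 88.2, 46.9 and 53.4 in TA livers, with a difference of -0.91 ± 0.43 and an edgeR adjusted p of 0.343. TA liver 1 was the highest of the 3 for both RT1-B chains, and model liver 1 lay inside the TA range. For RT1-Da the TA livers measured 225, 142 and 109 TMM CPM, with a difference of -0.93 ± 0.52. RT1-Db1 measured 109, 116 and 88.3, with a difference of -0.66 ± 0.41. The TA livers were thus below model livers 2 and 3 for both RT1-D chains, while model liver 1 lay inside the TA range of RT1-Da and below that of RT1-Db1.

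In the TA livers Cd74 measured 636, 379 and 404 TMM CPM, a difference of -0.67 ± 0.52 (log2, SE) from the model livers. Ciita measured 12.7, 6.09 and 8.43 in the TA livers, with a difference of -0.75 ± 0.44. Model liver 1 was below all TA livers for Cd74 and inside their range for Ciita. No member passed by either rule in TA VS Model, and their edgeR adjusted p ran from 0.343 to 0.530. The adjusted p passed for 0% of 12781 genes, the smallest being 0.230, while 15.6% had an unadjusted p under 0.05, and DESeq2 called 3.7% lower. The study's thresholds called 10.2% of genes lower. The median of the 6 members was -0.83, beside -0.0038 over all genes, and this comparison shares its model livers with Model VS Normal. Once model liver 1 was left out, 5 of the 6 were called lower by the study's thresholds, against 4.96% of genes, and the median was -1.15. With TA liver 1 left out it was 2 of 6, against 8.86% of genes. By range, the TA livers were all below the model livers for 0 of 6 members, against 12.6% of genes. With library totals in place of TMM they were below for 4 of 6, against 25% of genes.

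TA VS Normal asks how far the TA livers were from livers without hepatotoxin. Cd74 differed by 0.49 ± 0.30 (log2, SE, n = 3 in each group), RT1-Db1 by 0.43 ± 0.27, RT1-Da by 0.42 ± 0.32, Ciita by 0.28 ± 0.34, RT1-Ba by 0.18 ± 0.36 and RT1-Bb by 0.16 ± 0.33. None of the 6 passed by either rule, against 0.263% of 12179 genes by adjusted p and 5.25% by the study's thresholds, and the edgeR adjusted p ran from 0.725 to 0.962. The ranges of the groups overlapped for all 6, while 8.26% of genes had TA livers all above normal livers. Without TA liver 1 the differences of RT1-Ba, RT1-Bb and Ciita turned to -0.26, -0.17 and -0.046. TA liver 1 was the highest TA liver for 5 of the 6 members, RT1-Db1 being the exception.

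**Figure D3:**
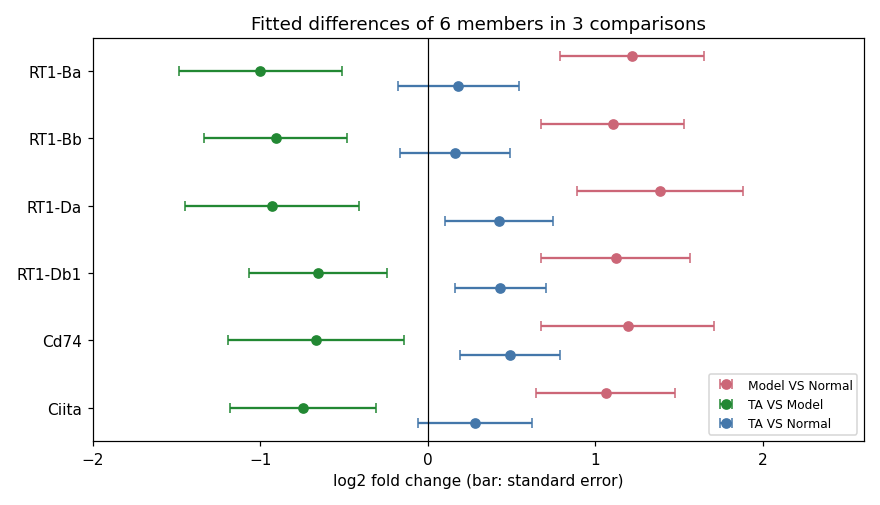
Fitted log2 differences of the 6 tested members in the 3 comparisons, with bars of 1 standard error and the x axis in log2 units. Model VS Normal lies between 1.06 and 1.39, TA VS Model between -1.0 and -0.66 and TA VS Normal between 0.16 and 0.49.

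The 6 members varied together from liver to liver. Over the 9 livers the correlation of log2 TMM CPM between members, given as a description of points that share libraries and scaling, was 0.825 to 0.986 over the 15 pairs, with a median of 0.949. RT1-Ba and RT1-Bb, the chains of 1 molecule, made the closest pair. Ratios within a liver do not depend on scaling. The counts of RT1-Ba over RT1-Bb lay between 0.915 and 1.28 in the 9 livers. RT1-Da over RT1-Db1 lay between 1.23 and 2.07. Cd74 over the sum of the 4 chains was 1.05, 1.06 and 1.11 in the normal livers, 0.987, 1.01 and 1.07 in the model livers and 1.20, 1.09 and 1.29 in the TA livers. These are ratios of counts, not corrected for gene length, so they compare livers and not the level of Cd74 with that of its clients. All 3 TA livers were above all 3 model livers on this ratio, model liver 1 being the lowest of the 9. The RT1-D chains over the RT1-B chains ran from 1.55 in normal liver 2 to 2.87 in TA liver 2.

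The other genes of the pathway came from lists of symbols. RT1-DOa and RT1-DOb, which form the DM inhibitor DO, were low and split like the members. RT1-DOa measured 3.16, 1.42 and 3.11 TMM CPM in normal livers, 1.30, 8.75 and 8.70 in model livers and 3.99, 2.96 and 5.45 in TA livers. RT1-DOb measured 1.91, 1.61 and 4.03 in normal livers, 1.80, 6.65 and 6.51 in model livers and 4.2, 3.98 and 3.13 in TA livers. Neither met the study's thresholds in Model VS Normal (unadjusted edgeR p 0.104 and 0.141), and model liver 1 was again within the normal range of RT1-DOb and below it for RT1-DOa. Without model liver 1, 2 of 2 were called higher, against 12.2% of genes. With library totals it was also 2 of 2, against 29.4% of genes.

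Among the factors of the X and Y boxes, 1 of 6 tested was called higher by the study's thresholds in Model VS Normal and 0 were called lower. Over all genes tested 16.6% were called higher and 5.55% lower. The factor called was Rfx5, the DNA binding subunit of the RFX complex at the X box. Rfx5 measured 7.47, 6.05 and 10.2 TMM CPM in normal livers, 20.3, 25.2 and 13.5 in model livers and 7.97, 10.7 and 7.31 in TA livers. Unlike the members, Rfx5 was above the normal and TA ranges in all 3 model livers. Its difference was 1.32 ± 0.33 (log2, SE; edgeR adjusted p 0.0490) in Model VS Normal and -1.18 ± 0.31 (edgeR adjusted p 0.249) in TA VS Model. In the absence of model liver 1 these were 1.28, with an edgeR adjusted p of 0.0656, and -1.14. The adjusted p of Rfx5 was also above 0.05 when any 1 normal liver or model liver 2 was left out, at 0.117 to 0.181. Rfxank, another RFX subunit, differed by -0.12 ± 0.28, and the Y box subunits Nfya, Nfyb and Nfyc by 0.72 ± 0.32, -0.85 ± 0.26 and 0.02 ± 0.20 in Model VS Normal. None of these 4 met the thresholds.

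Of 9 tested genes of the interferon gamma axis, 1 was called higher by the study's thresholds in Model VS Normal, against 16.6% of all genes. The receptor chain Ifngr1 was called, at 1.07 ± 0.36 (edgeR adjusted p 0.104). It was 0.58 without model liver 1. Ifngr2, the other receptor chain, differed by 0.94 ± 0.44 and Irf1, an interferon regulatory factor, by 0.24 ± 0.27. Irf8, a factor of myeloid and B cells, had the smallest p of the list and fell short of the fold threshold, at 0.94 ± 0.25 (edgeR adjusted p 0.0579). Irf8 measured 46.3, 33.3 and 44.4 TMM CPM in normal livers, 78.2, 66.3 and 93.1 in model livers and 60.7, 43.1 and 52.0 in TA livers, so that all 3 model livers were above every other liver. In TA VS Model it differed by -0.61 ± 0.26 (edgeR adjusted p 0.311). The median of the 9 was 0.34, beside 1.16 for the members. Of 12 tested genes of the class I pathway 0 were called in either direction, against 22.1% of all genes, with a median of 0.11.

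Proteases and other genes that prepare peptide for class II were called higher for 4 of 11, and lower for 0, in Model VS Normal, with a median of 1.26. The shares over all genes were 16.6% and 5.55%. The list did not move as a whole, since Ctsh, March8, Ctsl and Sppl2a differed by -0.88, -0.58, -0.36 and -0.15, none of them called. Lgmn, an endosomal endopeptidase, measured 683, 125 and 116 TMM CPM in the model livers, and 69.7, 57.6 and 50.5 in the normal livers. Ctss, the protease that trims Cd74, measured 156, 50.4 and 64.8 in the model livers and 47.8, 33.3 and 32.1 in the normal livers. These were highest in model liver 1, where the class II chains were not. The differences were 2.38 ± 0.71 for Lgmn and 1.27 ± 0.44 for Ctss, and 1.01 and 0.59 without model liver 1. Ifi30, a thiol reductase of the endosome, differed by 1.31 ± 0.43, and by 0.70 without it. In that setting 1 of 11 was called higher, Lgmn, against 12.2% of genes. In TA VS Model 3 of 12 were called lower, against 10.2% of genes. These were Lgmn at -1.94 ± 0.72, Ifi30 at -1.12 ± 0.44 and Ctsz, a cathepsin, at -1.30 ± 0.55. Without model liver 1, 0 were called lower, against 4.96% of genes.

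Costimulation genes, which give T cells their second signal, were called higher for 4 of 6 in Model VS Normal, against 16.6% of genes. Cd80 and Cd86, the ligands of Cd28, differed by 2.71 ± 0.70 and 1.41 ± 0.35, and Cd83 by 1.31 ± 0.50, with edgeR adjusted p of 0.0537, 0.0503 and 0.134. Cd80 rests on 1 to 41 counts a liver. The count was 2 of 6 without model liver 1, against 12.2% of genes, and Cd83 differed by 0.60 there. In TA VS Model 1 of 6 was called lower, against 10.2% of genes. It was Cd83, at -1.88 ± 0.52, and at -1.18 without model liver 1. In TA VS Normal none of these pathway lists held a called gene, while 5.25% of all genes were called.

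In whole tissue, more class II cells and more class II RNA per cell cannot be told apart, so marker lists are given beside the members. On TMM CPM, model liver 1 held the highest pan-leukocyte and macrophage sums, while its class II sum lay within the normal range. By library totals its class II sum was 1117 CPM. That was above the normal livers, at 416 to 740, and below model livers 2 and 3, at 2257 and 1981. The pan-leukocyte markers (Ptprc, Laptm5, Coro1a and Cd53) summed to 138, 80.7 and 103 TMM CPM in normal livers, 508, 205 and 214 in model livers and 158, 103 and 134 in TA livers. The macrophage markers summed to 641, 403 and 504 in normal livers, 3043, 709 and 739 in model livers and 912, 456 and 621 in TA livers. All 4 pan-leukocyte and 8 macrophage markers listed in both tables were detected in every liver. The 6 members summed to 876, 484 and 580 TMM CPM in normal livers, 661, 1954 and 1883 in model livers and 1179, 733 and 726 in TA livers.

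The ratio of class II counts to pan-leukocyte counts, which no scaling can change, was 6.33, 6.00 and 5.63 in the normal livers and 7.48, 7.10 and 5.40 in the TA livers. In model livers 2 and 3 it was 9.54 and 8.81, above all normal and TA livers. In model liver 1 it was 1.30, below all of them. Against macrophage markers the same ratio was 1.37, 1.20 and 1.15 in normal livers, 0.217, 2.75 and 2.55 in model livers and 1.29, 1.61 and 1.17 in TA livers. Against Ptprc alone, the CD45 gene of all leukocytes, it was 33.0, 25.5 and 19.4 in normal livers, 10.04, 51.2 and 42.1 in model livers and 36.0, 33.6 and 32.5 in TA livers. The model group thus spanned both ends of all 3 ratios, and its mean hides this.

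**Figure D4:**
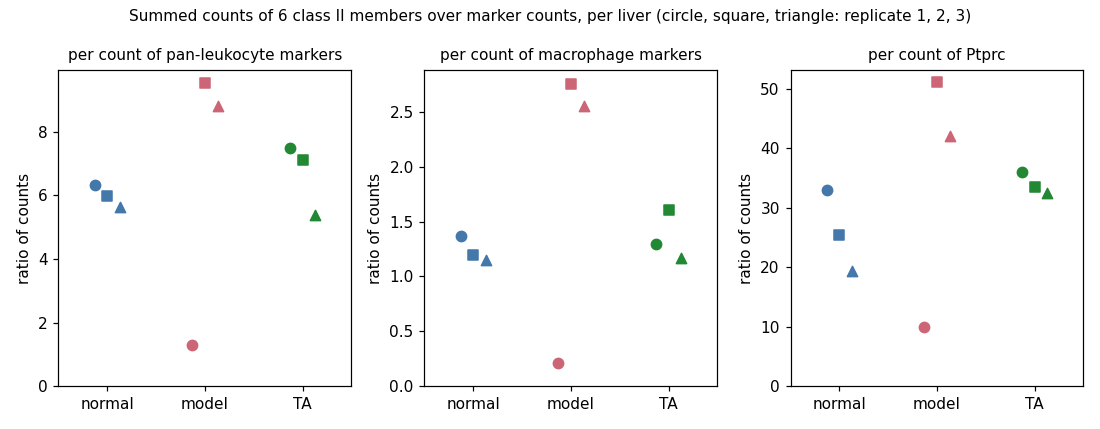
Summed counts of the 6 class II members divided by the counts of pan-leukocyte markers, macrophage markers and Ptprc in each liver (circle, square, triangle for replicates 1, 2 and 3). Model liver 1 is the lowest of the 9 in every panel, at 1.30, 0.217 and 10.04, and model livers 2 and 3 are the highest.

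The study's thresholds called 16.6% of all genes higher in Model VS Normal. By them, 3 of 4 pan-leukocyte, 3 of 9 dendritic cell and 4 of 8 macrophage markers were called higher. The leading ones were Cd53 at 2.26 ± 0.53 (edgeR adjusted p 0.0442), Coro1a at 1.33 ± 0.35, the dendritic cell lectin Clec10a at 3.32 ± 0.69 (adjusted p 0.0323), the integrin Itgax at 2.14 ± 0.50 (adjusted p 0.0426), and the macrophage genes Lyz2 at 3.21 ± 0.88 and Cd68 at 2.16 ± 0.74. Without model liver 1 they were 1.46, 1.05, 2.29, 1.40, 1.73 and 0.63. The adjusted p of Cd53, Clec10a and Itgax rose to between 0.0913 and 0.178 when any 1 normal liver was left out, and that of Cd53 to 0.0512 without model liver 2. Dendritic cell markers summed to 30.3 to 39.3 TMM CPM in normal livers, 149, 76.3 and 86.3 in model livers and 37.8 to 57.7 in TA livers. That sum does not stand for each marker, since Flt3 measured 3.86, 6.45 and 10.6 in the model livers. Pearson correlation with the mean standardised log2 TMM CPM of the members ran from -0.23 for Zbtb46 to 0.91 for Flt3 over the 9 markers. B cell markers summed to 11.4 to 17.7 in normal livers, 12.3, 24.1 and 21.4 in model livers and 10.7 to 18.3 in TA livers, an order with model livers 2 and 3 highest, as for the members. None of 6 B cell markers tested was called, while without model liver 1 the counts were 3 of 7 for B cell and 5 of 9 for dendritic cell markers. For pan-leukocyte and macrophage markers the counts fell to 2 of 4 and 1 of 8 in that setting. Over all genes 12.2% were called higher there. Markers of resident Kupffer cells went the other way, with 2 of 5 called lower, against 5.55% of genes. These were Marco at -2.17 ± 0.60 and Cd5l at -1.14 ± 0.45, and 4 of 6 were called lower without model liver 1. The share of all genes called lower in that setting was not counted. The part of these marker lists in the class II levels was not tested.

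In TA VS Model the marker genes called lower by the study's thresholds were led by Coro1a at -1.14 ± 0.30, Cd53 at -1.50 ± 0.49, Itgax at -1.79 ± 0.50, Clec10a at -2.39 ± 0.70 and Lyz2 at -2.6 ± 0.81, none with an adjusted p under 0.05. Without model liver 1 they were -0.87, -0.70, -1.05, -1.36 and -1.12. Clec4f, a Kupffer cell lectin, was called higher at 1.78 ± 0.73, and Clec4g of sinusoidal endothelium at 1.56 ± 0.59, where 2.11% of genes were called higher. Without model liver 1 they were 1.30 and 1.15. The Kupffer cell markers called higher were 1 of 6 with all livers, 3 of 6 without model liver 1 and 0 without model liver 2. The share of all genes called higher was not counted with a liver left out. Kupffer cell marker sums in the TA livers were 561, 248 and 210 TMM CPM, against 254 to 351 in normal livers. None of 8 T and NK cell markers and none of 5 hepatocyte markers was called in any comparison. Of all genes, 22.1% were called in Model VS Normal, 12.3% in TA VS Model and 5.25% in TA VS Normal. Of the 5 stellate cell markers 2 were called higher in Model VS Normal, against 16.6% of genes. These were Des at 3.59 ± 0.87 and Rgs5 at 2.18 ± 0.92, while Lrat, Hgf and Reln differed by -0.02, 0.07 and 0.25. Des, which encodes desmin, was the 1 of 5 called lower in TA VS Model, at -2.21 ± 0.82, and higher in TA VS Normal, at 1.35 ± 0.39. In those directions 10.2% and 4.24% of all genes were called. Without model liver 1 the Model VS Normal values were 1.88 for Des and 0.54 for Rgs5, and Des was -0.50 in TA VS Model.

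**Figure D5:**
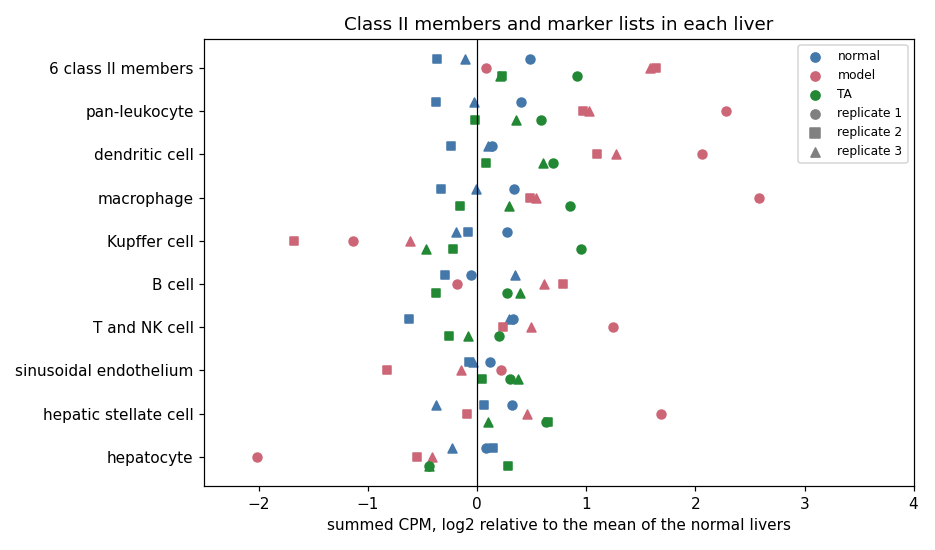
Summed TMM CPM of the 6 class II members and of 9 cell marker lists in each liver, as log2 relative to the mean of the 3 normal livers, with colours for groups and shapes for replicates. Model liver 1 has the highest pan-leukocyte, dendritic cell and macrophage sums but stays near 0 for class II, where model livers 2 and 3 are highest. The dendritic cell sum does not stand for each marker. Flt3 was 3.86 TMM CPM in model liver 1 and 6.45 and 10.6 in model livers 2 and 3.

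The genes most like the members over the 9 livers were found by Pearson correlation with the mean standardised log2 TMM CPM of the 6 members, among 12992 genes. They were Prdm16 (r = 0.944), P2ry10 (0.914), Sema4f (0.910), Parm1 (0.908) and Flt3 (0.906). These are descriptions over points that share libraries. Flt3, the cytokine receptor of dendritic cell precursors and one of the dendritic cell markers listed, measured 3.32, 2.25 and 2.94 TMM CPM in normal livers, 3.86, 6.45 and 10.6 in model livers and 7.26, 3.89 and 3.73 in TA livers. P2ry10, a receptor of lymphocytes, measured 2.91, 1.74 and 3.11 in normal livers, 1.80, 6.65 and 5.16 in model livers and 3.42, 2.20 and 2.61 in TA livers. In both, model livers 2 and 3 were the highest or among the 3 highest of the 9 livers. Prdm16, the gene with the highest r, rests on 5 to 38 counts a liver. Without model liver 1 the 5 genes had r from 0.908 to 0.966 but ranked between 14 and 184 among all genes, so that the choice of these 5 depends on that liver.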

How the data were processed

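Rat liver poly(A) RNA in 9 libraries was analysed, grouped by GEO's titles. The authors trimmed reads with Trimmomatic and Cutadapt, mapped them with STAR, and made the deposited raw counts per gene with HTSeq-count. The methods name the human build hg19 and the submitters' processing notes name mm9, while the gene symbols are those of rat, so the build is unsure. FPKM, which divides counts by exon length and library size, was computed by the authors. The deposited signal columns, the authors' counts divided by size factors, and the authors' fold changes, p-values and adjusted p-values were not used. The tables hold 16938 and 16948 genes, 16730 in both. Counts were tested in R 4.3.3 with edgeR 4.0.16, using TMM scaling, filterByExpr, the quasi-likelihood test and Benjamini-Hochberg adjustment over all genes tested. DESeq2 1.42.0 and limma 3.58.1 served as alternatives. Scripts were tested on simulated data. Members and lists were chosen with earlier results of these data known. Named genes are all members and, from each list, the 3 (pathways) or 2 (cell markers) with the smallest p past the study's thresholds, with the 5 genes most like the members. The other genes named with values were chosen from the lists after their values were seen. Deviations of livers with the same number correlated at 0.233 to 0.452 in TA VS Normal. No label gives a source for a pairing, and this check alone cannot establish one. The fits reported for TA VS Normal did not use the numbers, and the replicate block was fitted as an alternative. How reads that map to more than 1 class II gene were counted was not tested, and the likeness of the chains in sequence was not measured.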

Additional observations from a re-analysis of the deposited data

How the results depend on the processing

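The 6 tested members kept the sign of their differences in TA VS Model and in Model VS Normal under every alternative fitted (DESeq2 size factors, library totals, no filter on low counts, the DESeq2 test, limma voom with sample quality weights, the other form of the quasi-likelihood fit, all 9 livers in 1 fit, the replicate block and each liver left out). The calls did not hold in the same way, and the cause was not tested unless named. In Model VS Normal the count of members with an adjusted p under 0.05, 0 of 6 as reported, was 6 with library totals (against 15.1% of genes), 2 with DESeq2 (RT1-Ba and RT1-Da, against 14.2%) and 6 with limma voom (against 15.5%), and ranged from 0 to 6 with single livers left out, the 6 without model liver 1. The count by the study's thresholds, 6 as reported, was 0 with the replicate block and ranged from 0 to 6 with single livers left out. In TA VS Model that count, 0 as reported, was 5 with library totals (against 18.4%), 3 with limma voom (against 8.69%) and 1 with all 9 livers in 1 fit (against 10.8%), and ranged from 0 to 5 with single livers left out. In TA VS Normal no alternative called a member. With single livers left out RT1-Ba ranged there from -0.26 to 0.46, RT1-Bb from -0.17 to 0.50 and Ciita from -0.046 to 0.49, the negative values all being without TA liver 1. With single livers left out the median of the 6 ranged from 0.95 to 1.49 in Model VS Normal, from -1.15 to -0.59 in TA VS Model and from 0.02 to 0.60 in TA VS Normal, where the lowest value was without TA liver 1 and the highest without normal liver 1.

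With the replicate number as a block the median was 1.09, -0.78 and 0.32 in the 3 comparisons. Same-numbered deviations correlated at -0.05 to 0.21 in Model VS Normal, and for TA VS Model the range was -0.04 to 0.21. So few correlations can neither establish nor exclude a pairing by number. In TA VS Normal, where same-numbered deviations correlated at 0.233 to 0.452, the reported fits were unpaired and the block changed no member's call. Library totals moved the median of all genes to a log2 of 0.65 in Model VS Normal, while in TA VS Model it became -0.48. Depth did not limit the 6 tested members, which had at least 72 counts in every liver, but RT1-DMa and RT1-DMb had too few counts to be compared, and the cause was not tested. With 3 livers in a group, of which 1 model liver stood apart in composition, the p-values set differences against a wide spread.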
